A study of Drosophila melanogaster with 12 samples.

Results

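The comparison described here sets the 4 arrays of Rad21 knockdown cells directly against the 4 arrays of Nipped-B knockdown cells, without using mock treated cells as the reference. Its members are the probe sets other than controls that reached a log2 expression of 4 on at least 2 of these 8 arrays. There were 7304 of them among 18769, and 7107 of them reached that level on all 8 arrays. RNA of the ML-DmBG3 (BG3) cell line, which is derived from the Drosophila central nervous system, was measured on Affymetrix Drosophila Genome 2.0 arrays, 12 in all, 4 for each of mock, Rad21 and Nipped-B RNAi. In both knockdowns, replicates 1 and 2 were harvested at day 3 after 40 µg of dsRNA, replicate 3 at day 4 after 10 µg and replicate 4 at day 6 after 10 µg. Mock cells received 0 µg and were harvested on the same days. The time of harvest and the amount of dsRNA therefore changed together and cannot be told apart, and no array carries a control dsRNA. All cells were of 1 line, and per the labels the knockdown cells received equal amounts of a pair of dsRNAs against their target, in medium whose serum was restored after a short incubation. The labels call the 4 arrays of a treatment biological replicates.

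Cohesin is a ring of SMC1, SMC3, Rad21 and a Stromalin subunit that holds sister chromatids together. Rad21 is the subunit that closes the ring, and Nipped-B is the protein that, with Mau2, loads the ring onto chromosomes. In flies both proteins bind many transcribed genes, and both influence gene expression apart from their part in cohesion. Loss of Rad21 removes a part of the ring, whereas loss of Nipped-B leaves the ring intact but less of it on chromatin. The direct comparison asks which transcripts differed between these knockdowns. The dsRNAs against Rad21 were made with the primers below, shown because they define one arm of the comparison. Only the gene-specific part is given, 5′ to 3′, without the shared promoter tail, and the gene lies on chromosome arm 3L.
Rad21 dsRNA 1 forward: ctggttggcagcacattggg
Rad21 dsRNA 1 reverse: gcatatcagcatgggcgtcc
Rad21 dsRNA 2 forward: tgggtgacgattttaatcaaggag
Rad21 dsRNA 2 reverse: cgcctgttttctggaatttcctg

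How far either target was reduced is not given here. The Nipped-B probe set was at background on all 8 arrays (2.27 to 2.29), and the Rad21 gene (vtd) was not analysed here. Of 13 tested genes for cohesin and its cofactors none was called in any test below, with or without a block, and their differences ran from -0.58 to 0.07 on the log2 scale at day 3. SMC1, SMC3 and SA1 differed by -0.03, -0.03 and 0.00 over all arrays, while c(2)M differed by -2.52 at day 4 and 0.02 at day 6 (adjusted p = 0.954 over all arrays). No tested marker of the 8 cell types listed was called in a test without a block. With the day 3 block 1 was, the germline gene aub (-0.46, adjusted p = 0.0755), against 145 of all 5894 genes tested in this direction. Of 16 neuronal markers with a probe set, 13 were under log2 4 on all 8 arrays, nSyb and brp among them, while elav lay between 8.19 and 9.43. Of 14 glial markers, 8 were at log2 4 or more on all 8. The log2 of the summed glial level was 14.34 to 14.45 in Rad21 and 14.27 to 14.55 in Nipped-B arrays, and for neuronal markers it was 9.0 to 9.53 and 8.57 to 9.67. It overlapped between the groups for all 8 lists. Among single markers the muscle gene sls, the 1 tested of its list, was higher on the Rad21 arrays by 1.17 at day 3, 0.67 at day 4 and 0.32 at day 6 (adjusted p = 0.515). The haemocyte gene eater was 1.25 lower at day 6, when 4 of 6 tested haemocyte genes were lower and 2 higher. The neuroblast gene mira was 0.86 lower at day 6, while 3 of the 4 tested neuroblast genes were higher. Their part in the results was not tested. Whether a lower level came from fewer cells of a kind or from less RNA per cell cannot be told apart in such samples.

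The knockdowns gave similar transcript profiles. Over the 7304 probe sets, values of the matched arrays correlated with Pearson's r of 0.9941 and 0.9938 for the day 3 pairs, 0.9895 at day 4 and 0.9949 at day 6, as a description across probe sets, which are not independent. The SD of the difference was 0.246, 0.255, 0.339 and 0.232 on the log2 scale. For comparison it was 0.177 between the Rad21 arrays of day 3 and 0.223 between the Nipped-B arrays of day 3. The Nipped-B arrays of day 4 and day 6 were the farthest apart (SD 0.444), with 282 probe sets at least 2-fold higher on the day 6 array and 47 on the day 4 array. Differences of 2-fold or more between the knockdowns were few. In the mean of day 3, 32 probe sets (0.438%) were higher in Rad21 and 18 (0.246%) in Nipped-B cells, against 70 (0.958%) and 60 (0.821%) at day 4 and 35 (0.479%) and 27 (0.37%) at day 6. The day 3 counts are of a mean of 2 pairs and the later ones of 1 pair each. As single pairs, replicate 1 of day 3 had 33 and 26 and replicate 2 had 52 and 18.

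Averaged over early and late harvests, 1 probe set passed the limma test at an adjusted p of 0.1 (0.0137% of 7304), that of arg, which encodes arginase. On the Rad21 arrays arg was at 9.06, 9.18, 8.94 and 9.18, and on the Nipped-B arrays at 7.87, 7.85, 7.88 and 7.96. The groups did not overlap, and the spread within each was small. The difference was 1.20 on the log2 scale (SE 0.08, 2.30-fold, adjusted p = 0.0127), and it was 1.19, 1.33, 1.06 and 1.22 within the 4 pairs. Mock arrays covered 7.0 to 8.67, a range that held all Nipped-B values and no Rad21 value. The adjusted p rose to 0.149 without Rad21 replicate 1, 0.197 without Rad21 replicate 2, 0.208 without Nipped-B replicate 1 and 0.219 without Nipped-B replicate 2, with differences of 1.17 to 1.23. At an unadjusted p of 0.05, 443 probe sets passed. Without Nipped-B replicate 4 the test called 171 probe sets, without Rad21 replicate 3 it called 3 and without Nipped-B replicate 3 it called 2. It called none without Rad21 replicate 1 or 2 or Nipped-B replicate 1 or 2 (234 to 382 at an unadjusted p of 0.05).

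Arrays of the 2 knockdowns with the same replicate number varied together, and with the replicate number as a block the test called 37 probe sets (0.507%), 28 higher in Rad21 (0.383%) and 9 higher in Nipped-B cells (0.123%). These 37 differed the same way in 4 of 4 pairs, as did 1115 of all members. Of the 37, 32 match 1 gene, 2 match several and 3 have no gene name. The differences of the 28 ran from 0.30 to 2.58 on the log2 scale (median 0.87, 11 at 2-fold or more), and those of the 9 from 0.49 to 1.40 in size (median 0.87, 3 at 2-fold or more). The groups of 4 did not overlap for 4 of the 28 and 4 of the 9, against 0.602% and 0.767% of all members in these directions. The calls were made on these same arrays, so this contrast is no separate evidence. Leaving out 1 array gave 7 to 38 calls with the block: 10, 9, 26 and 36 without Rad21 replicates 1 to 4, and 11, 7, 26 and 38 without Nipped-B replicates 1 to 4.

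**Figure D1:**
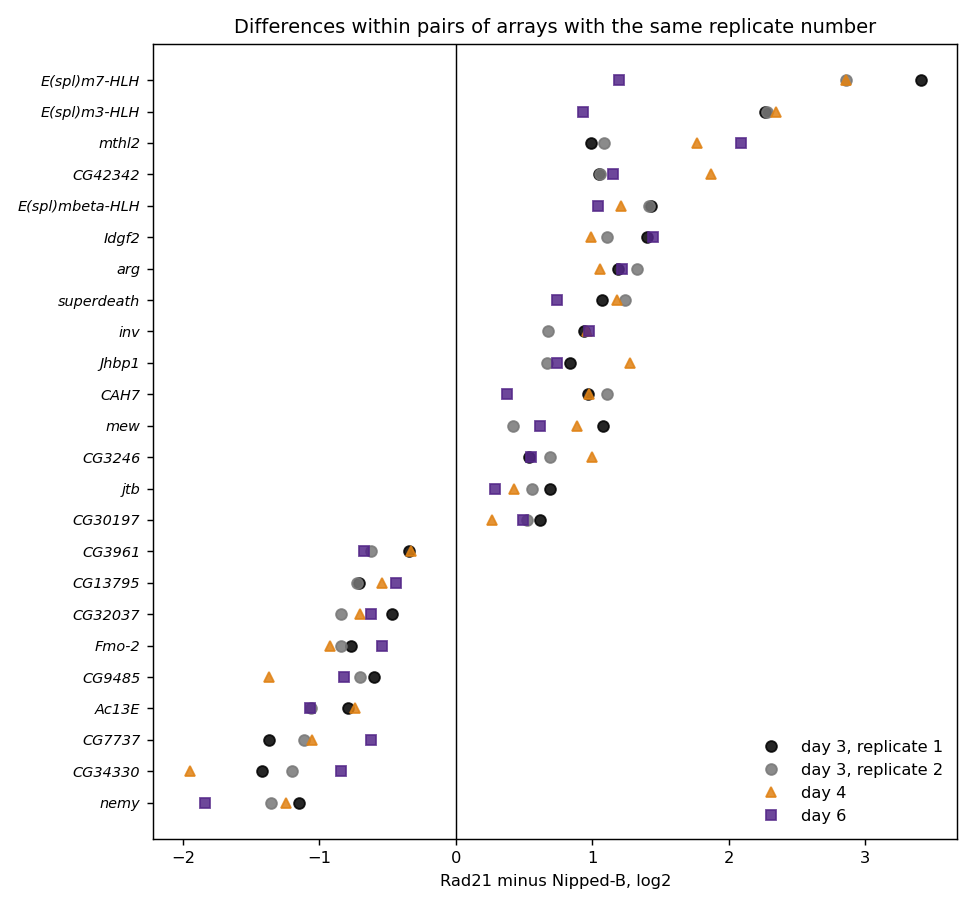
Rad21 minus Nipped-B on the log2 scale (x axis) within each of the 4 pairs of arrays with the same replicate number, for the 15 named genes highest in Rad21 and the 9 highest in Nipped-B cells among those called with the replicate block (y axis). Each point is 1 pair, and for every gene the 4 points lie on 1 side of 0. That they do is part of how these genes were called.

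The cluster of neighbouring Notch target genes known as E(spl)-C (Enhancer of split) held the 2 named genes with the largest difference in the fit with the block, both higher with Rad21 knockdown. It holds 12 genes, 10 of which have their own probe set in the annotation used here, and 5 passed the filter. The paper also reports HLHmγ on these arrays, a gene not analysed here. The block called 3 of the 5, E(spl)m7-HLH, E(spl)m3-HLH and E(spl)mbeta-HLH, against 21 of all 5894 genes in this direction, and the test without the block called none (adjusted p = 0.403 to 0.998 over the 5). At day 3 the test without a block called 4 of the 5 (51 of 5894 genes), these 3 and E(spl)mdelta-HLH, with adjusted p of 0.0107 to 0.0477. At days 4 and 6 the block called the 3 again (adjusted p = 0.0377 to 0.0953, against 28 of 5894 genes) and the test without it none. The 4 repressor genes were higher in the Rad21 array of every pair. The median difference of the 5 was 2.27 at day 3, 2.35 at day 4 and 0.93 at day 6, against -0.00, -0.02 and -0.02 over the 5894 genes tested. These genes were among those the study had singled out in the same samples, so the count is not independent evidence.

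E(spl)m7-HLH, a basic helix-loop-helix repressor, was at 8.03, 8.01, 8.51 and 9.61 on the Rad21 arrays and at 4.62, 5.15, 5.65 and 8.41 on the Nipped-B arrays. The Nipped-B array of day 6 stood above the Rad21 arrays of day 3, so the groups overlapped. The ratio of Rad21 to Nipped-B was 8.79 at day 3, then 7.25 and, on the last day, 2.30. The difference over all arrays was 2.58 (SE 0.59, adjusted p = 0.422), and the block gave an adjusted p of 0.0511 (SE 0.33).

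E(spl)mdelta-HLH, another repressor of this family, had the largest difference at day 3. It was at 7.47, 7.22, 7.82 and 9.02 in Rad21 and at 4.04, 3.84, 4.75 and 8.34 in Nipped-B cells. Up to day 4 the Nipped-B values were thus within 1 log2 unit of the mock range (2.40 to 3.80), and at day 6 they were not. Since the Nipped-B values of day 3 were at or near background, the ratio there was at least 10.0, with values under log2 4 set to 4. It was 8.39 at day 4 and 1.61 at day 6. The gene was called at day 3 (difference 3.40, or 3.33 with low values set to 4, adjusted p = 0.0107 and 0.0249) and not with the block over all days (2.64, adjusted p = 0.113).

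E(spl)m3-HLH followed the same course at a higher level. It stood at 8.41, 8.33, 9.55 and 10.86 on the Rad21 and 6.14, 6.06, 7.20 and 9.93 on the Nipped-B arrays, with folds of 4.83, 5.10 and 1.91 at days 3, 4 and 6 (block adjusted p = 0.0481). E(spl)mbeta-HLH was at 5.53, 5.66, 6.10 and 7.0 in Rad21 and 4.10, 4.24, 4.89 and 5.96 in Nipped-B cells (block adjusted p = 0.0158). Its fold fell less with time, from 2.68 at day 3 to 2.32 at day 4 and 2.05 at day 6. The Bearded family member E(spl)malpha-BFM was low throughout, at 3.42 to 5.29 in Rad21 and 2.77 to 4.77 in Nipped-B cells (difference 0.59, SE 0.55, adjusted p = 0.998). It passed log2 4 on the day 6 arrays only, so its earlier differences are between background values. Among the untested genes Kaz-m1, E(spl)m4-BFM and E(spl)m5-HLH were at or below 2.50 on all 8 arrays, while E(spl)m2-BFM reached 5.39 on the Rad21 and 3.54 on the Nipped-B array of day 6 alone. E(spl)m6-BFM went the other way on that day, at 2.78 on the Rad21 and 3.57 on the Nipped-B array, both under log2 4. The narrowing of the E(spl)-C difference between time classes was not called for any of the 5 genes (changes of -1.53 to 0.01, adjusted p = 0.841 to 0.999). The block called none of these changes either.

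**Figure D2:**
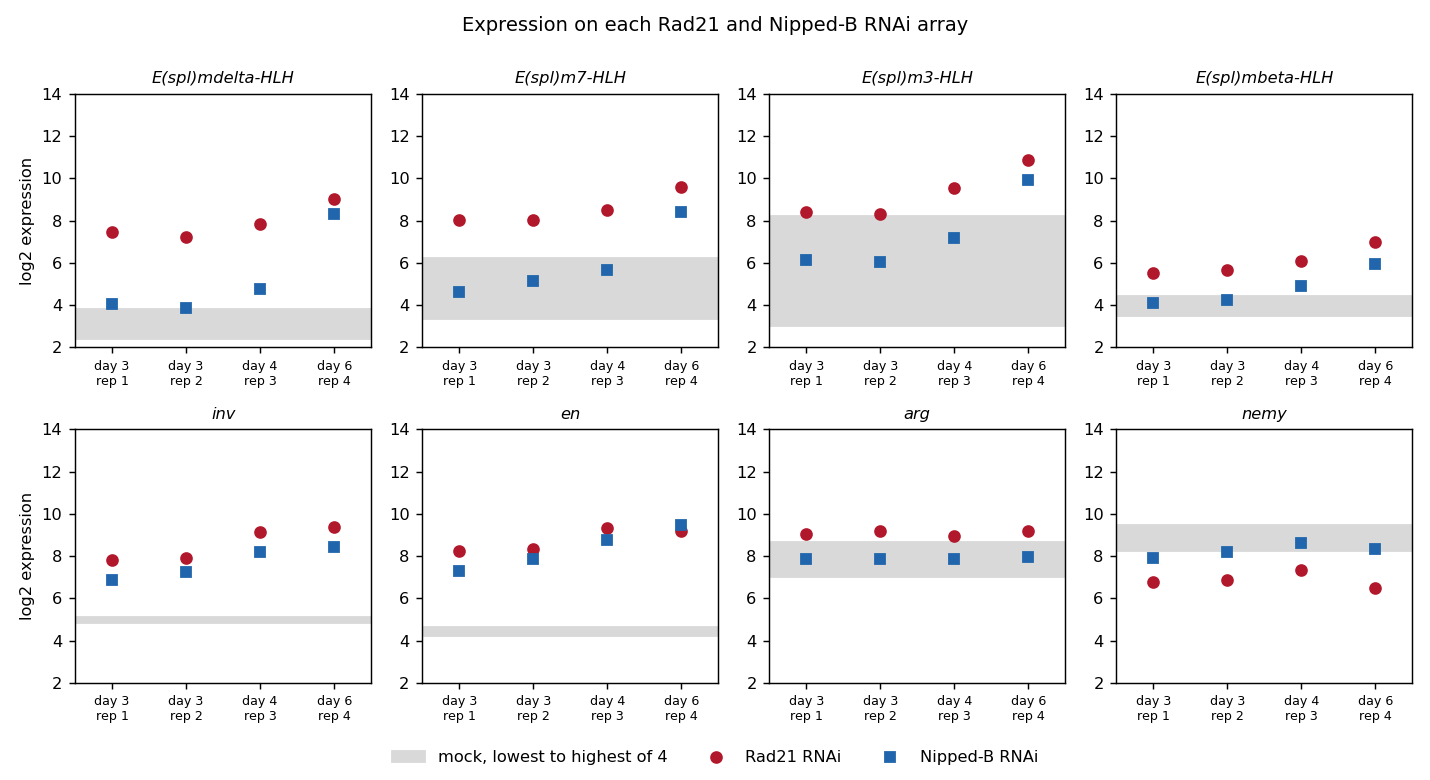
Log2 expression (y axis) of 8 genes on each Rad21 RNAi (circles) and Nipped-B RNAi array (squares) by day and replicate (x axis), with the grey band from the lowest to the highest of the 4 mock arrays. The E(spl)-C genes at day 3 are 2.68-fold to at least 10.0-fold higher in Rad21 cells, the Nipped-B values come nearer at day 6, and arg and nemy keep the groups apart on all days.

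The neighbouring homeobox genes inv and en, which encode segment polarity transcription factors, were above the mock range on all 8 arrays. The inv probe set described here was at 7.82, 7.91, 9.15 and 9.40 in Rad21 and at 6.88, 7.23, 8.19 and 8.42 in Nipped-B cells, against 4.84 to 5.12 in mock cells. The paper shows another probe for this gene, whose values are not given here. Within pairs Rad21 was higher by 0.94, 0.68, 0.96 and 0.98. The difference of 0.89 (SE 0.11) gave an adjusted p of 0.12, and 0.0158 with the block. At days 4 and 6 it was 0.97, with an adjusted p of 0.246, and 0.0237 with the block. The en probe set was at 8.22, 8.34, 9.33 and 9.20 in Rad21 and 7.31, 7.84, 8.76 and 9.47 in Nipped-B cells. It was thus higher with Rad21 knockdown up to day 4 and not at day 6, and its difference of 0.43 was not called (SE 0.18, adjusted p = 0.843, block 0.65). On the day 3 arrays alone the block called both inv (0.81, adjusted p = 0.0382) and en (0.71, adjusted p = 0.0644), and the test without it called neither. No difference between inv and en was tested. The other genes that the study named and that passed the filter, jing, Psc, Lim1, mam and Delta, differed by -0.13 to 0.21 (adjusted p = 0.998 for each).

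Of 16 tested Notch pathway genes none was called in the 4 tests without a block. Their median difference was 0.02. The day 3 block called 1, against 145 of 5894 genes in this direction: fng, a glycosyltransferase that modifies Notch. It was 0.53 lower in Rad21 cells at day 3 (adjusted p = 0.084, and 0.14 without the block). The Notch ligand gene Delta was at 4.73, 4.33, 4.76 and 5.86 in Rad21 and 4.83, 4.81, 4.60 and 5.41 in Nipped-B cells. Its groups overlapped and its difference was 0.01 (SE 0.29).

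The block called further genes higher in Rad21 cells. Idgf2, a chitinase-like secreted growth factor, was at 8.95, 9.10, 7.21 and 6.50 in Rad21 and 7.55, 7.99, 6.23 and 5.04 in Nipped-B cells. Both series fell with time and kept a distance of 0.99 to 1.45 (block adjusted p = 0.0158, 0.426 without). The methuselah-like receptor gene mthl2 was at 7.25, 7.38, 7.05 and 7.94 against 6.26, 6.29, 5.28 and 5.85, and these groups did not overlap. Its fold was 2.05 at day 3, 3.41 at day 4 and 4.25 at day 6 (block adjusted p = 0.0523, 0.152 without, and at days 4 and 6 alone 0.00746 and 0.246). The gene for a binding protein of juvenile hormone, Jhbp1, was at 9.55, 9.75, 10.67 and 10.31 against 8.71, 9.08, 9.39 and 9.57, all far above the 3.88 to 6.54 of mock cells (difference 0.88, block adjusted p = 0.0481, 0.128 without). Jhe, the juvenile hormone esterase gene, was 1.11 higher in Rad21 cells at day 3 and called there (adjusted p = 0.0791). Of 4 tested genes of juvenile hormone binding and turnover, 1 was called by the block and 1 at day 3, both higher in Rad21 cells, against 21 and 51 of 5894 genes. The day 3 block called 3 higher and 1 lower, against 187 and 145 of 5894.

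The carbonic anhydrase gene CAH7 (0.86), the integrin alpha chain gene mew (0.75), CG42342 (1.28), superdeath (1.06), CG3246 (0.70), jtb (0.49) and CG30197 (0.47) were also higher in Rad21 cells with block adjusted p of 0.0168 to 0.0879 and 0.12 to 0.574 without. For CG3246 and jtb the 2 groups did not overlap. The CG3246 values were 11.77, 11.89, 11.63 and 11.94 in Rad21 and 11.23, 11.20, 10.63 and 11.39 in Nipped-B cells. Among 16 tested integrin and basement membrane genes mew was the 1 called by the block, against 21 of 5894 genes in this direction. The other integrin alpha genes if and scb differed by -0.04 and -0.19.

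Of the 9 probe sets that were higher in Nipped-B cells with the block, nemy, a cytochrome b561 gene, had the largest difference. It was at 6.78, 6.85, 7.35 and 6.50 in Rad21 and 7.93, 8.20, 8.60 and 8.34 in Nipped-B cells. The groups did not overlap, and mock cells, at 8.22 to 9.45, were near or above the Nipped-B values. The difference was -1.40 (SE 0.19, adjusted p = 0.128, block 0.0158). At days 4 and 6 the adjusted p was 0.288, and 0.022 with the block. Ac13E, an adenylyl cyclase gene, was at 7.99, 7.64, 8.37 and 8.33 against 8.78, 8.69, 9.11 and 9.39, again without overlap (difference -0.91, adjusted p = 0.12, block 0.0168). CG34330 moved over a wide range between arrays, from 5.66 to 10.34 in Rad21 and from 6.86 to 12.21 in Nipped-B cells. Both lowest values were those of day 3, replicate 2, while replicate 1 of that day was at 8.03 and 9.45. Yet the pair differences of CG34330 were all between -1.95 and -0.84 (block adjusted p = 0.0481, 0.963 without). CG7737, CG9485, the flavin monooxygenase gene Fmo-2, CG32037, CG13795 and CG3961 differed by -1.04 to -0.49 (block adjusted p = 0.0447 to 0.0879).

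Mock arrays, which did not choose these genes, were compared with both knockdowns by means over all days. For all 28 probe sets called higher in Rad21 cells with the block, the mean of Rad21 was above that of Nipped-B and the latter was above mock. Among the 3268 members with a higher Rad21 mean, 72.2% had that order. For 7 of the 9 called higher in Nipped-B cells, Rad21 was below Nipped-B and Nipped-B below mock, against 53.7% of 4036 members with a lower Rad21 mean, and for the other 2 mock lay between. It follows from these orders that no called probe set of the 37 had Nipped-B farther from mock than Rad21 on the same side.

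At day 3, where both knockdowns had 2 arrays of 1 day and 1 amount of dsRNA, 84 probe sets were called (1.15% of 7304), 66 higher in Rad21 (0.904%) and 18 in Nipped-B cells (0.246%). At an unadjusted p of 0.05 there were 1227. With the replicate block on these 4 arrays the calls were 420 (5.75%), 237 higher in Rad21 (3.24%) and 183 in Nipped-B cells (2.51%). That block fit leaves 1 residual degree of freedom per probe set, so its error comes largely from the spread shared over all probe sets. The call count depended on single arrays: none was called without Rad21 replicate 1 or 2 (559 and 537 at an unadjusted p of 0.05), 3 were made without Nipped-B replicate 1 and 56 without Nipped-B replicate 2. In the fit of all 8 arrays the same contrast called 5. With values under log2 4 set to 4, the test on the 4 arrays of day 3 without a block called 32.

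After E(spl)mdelta-HLH, E(spl)m7-HLH and E(spl)m3-HLH, the named genes called at day 3 that were farthest apart on the Rad21 side were CG6044 and LysX. CG6044 was at 6.93 and 6.85 in Rad21 and 5.02 and 5.60 in Nipped-B cells (1.58, SE 0.21, adjusted p = 0.0797). LysX, a lysozyme gene, was at 5.89 and 5.86 against 4.44 and 4.42 (1.44, SE 0.11, adjusted p = 0.0451). Neither kept its distance: at days 4 and 6 CG6044 was at 7.55 and 7.29 against 7.38 and 6.92, and LysX at 4.46 and 4.36 against 4.89 and 4.14. The arginase gene arg was among the 66 as well (1.26, adjusted p = 0.0347).

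On the Nipped-B side CG46339 was at 8.49 and 8.24 in Nipped-B and 6.76 and 5.97 in Rad21 cells at day 3 (-2.0, SE 0.28, adjusted p = 0.0851). CG6040 was at 7.25 and 6.84 against 5.35 and 5.23 (-1.75, SE 0.17, adjusted p = 0.0481). The secreted metalloprotease gene AdamTS-A was at 6.59 and 6.51 against 5.14 and 4.87 (-1.55, SE 0.13, adjusted p = 0.0477). Their differences were 0.08, -0.74 and -0.22 at day 4 and -1.02, -0.20 and 0.08 at day 6, and AdamTS-A was by then under log2 4 in both knockdowns. The day 4 value of CG46339 rests on a Nipped-B array at 5.79, apart from the other 3 Nipped-B arrays (8.24 to 8.49). The change between time classes was called with the block for CG6040 (adjusted p = 0.0999) and AdamTS-A (0.0907) and without it for none of the 3. GlcAT-P, a glucuronyltransferase gene, was at 7.75 and 7.62 against 6.46 and 6.29 (-1.31, SE 0.11, adjusted p = 0.0477), and its difference was -0.56 at day 4 and -0.32 at day 6.

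The day 4 and day 6 arrays had no part in the day 3 test. Of the 66 probe sets called higher in Rad21 cells at day 3, 46 were higher at day 4, 42 at day 6 and 39 on both days, against 47.0%, 44.4% and 23.2% of all members. Their median difference was 0.75 at day 3, 0.28 at day 4 and 0.21 at day 6, and 18, 19 and 12 of them were 2-fold or more apart on these days. Of the 18 called higher in Nipped-B cells, 12 were so at day 4, 10 at day 6 and 7 on both days, against 53%, 55.6% and 31.8% of all members. Their median went from -1.14 at day 3 to -0.12 and -0.04. Over all members the day 3 difference correlated with the mean of the later differences with r = 0.15, the differences of day 4 and day 6 with r = 0.38 and those of the 2 day 3 pairs with r = 0.58, as a description across probe sets whose points share arrays and normalization. For 57 of the 66 the day 3 means ran from mock over Nipped-B to Rad21 upward (70.3% of the 3661 members with Rad21 higher), and for 15 of the 18 downward (63.7% of 3643).

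**Figure D3:**
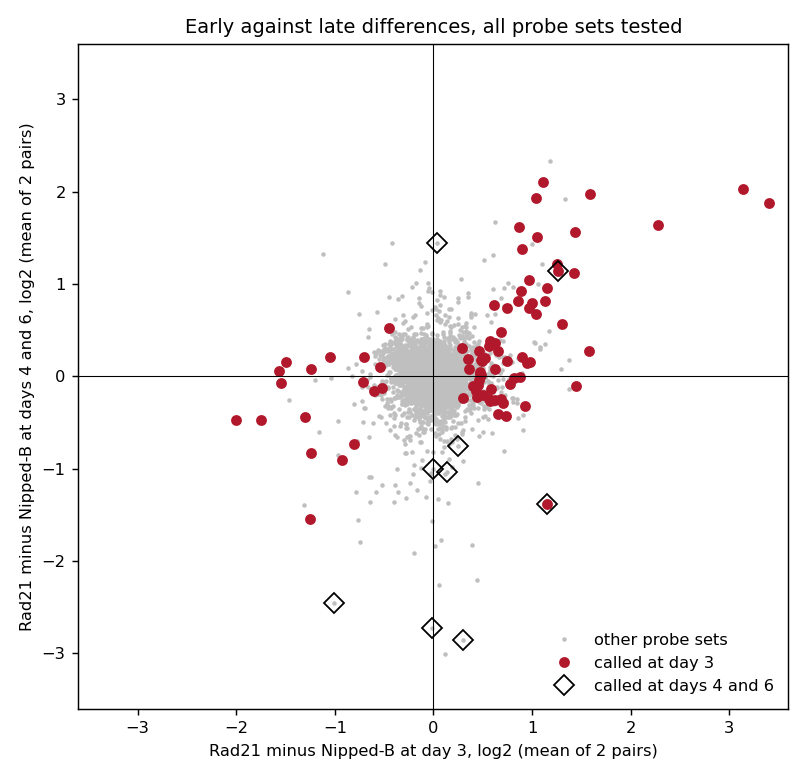
Rad21 minus Nipped-B on the log2 scale at day 3 (x axis) and at days 4 and 6 (y axis), each the mean of 2 pairs, for the 7304 probe sets. Filled circles are the 84 called at day 3 and open diamonds the 9 called at days 4 and 6, of which 2 are in both sets.

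At days 4 and 6 together, 9 probe sets were called (0.123%), 2 higher in Rad21 (0.0274%) and 7 in Nipped-B cells (0.0958%), with 488 at an unadjusted p of 0.05. With the day as a replicate block on these 4 arrays there were 74 calls (1.01%), 43 higher in Rad21 (0.589%) and 31 in Nipped-B cells (0.424%). As at day 3, that block fit leaves 1 residual degree of freedom per probe set. Idgf6, another chitinase-like growth factor gene, was at 3.62 and 3.66 in Rad21 and 6.32 and 6.67 in Nipped-B cells, and at 2.97 to 3.56 on all 4 arrays of day 3. Mock cells were at 3.52 to 3.59, so the gene stood above log2 4 on the late Nipped-B arrays only. The fitted difference was -2.85 (adjusted p = 0.0532), and -2.49 with values under log2 4 set to 4 (0.00707). CG3104 had the same form, at 5.52 and 4.57 on the late Nipped-B arrays, 2.24 to 2.37 on the other 6 and 2.24 to 3.11 in mock cells. Its fitted difference of -2.73 (adjusted p = 0.0705) became -1.05 and was not called with low values set to 4 (0.536). Both genes passed the filter only through the arrays on which they were high and so had to differ, and the fitted sizes are set against background.

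The other named late calls were above log2 4 on all 8 arrays. Rgk1, which encodes a small GTPase, was at 10.30 and 10.07 in Rad21 and 11.15 and 11.22 in Nipped-B cells (-1.0, SE 0.09, adjusted p = 0.0532), having been within 0.07 in each day 3 pair. The tetraspanin gene Tsp5D was at 12.20 and 12.26 against 12.97 and 13.00 (-0.76, SE 0.08, adjusted p = 0.0617). CG9801 was at 7.26 and 6.99 against 8.10 and 8.23 (-1.04, SE 0.11, adjusted p = 0.0705), with the Nipped-B values near the mock range of 7.86 to 8.13. The anion exchanger gene Ae2 was higher in Rad21 cells, at 6.04 and 5.75 against 4.34 and 4.57 (1.44, SE 0.16, adjusted p = 0.0705), inside a wide mock range of 2.95 to 7.03. A pair of probe sets without a gene name were also higher in Nipped-B cells (-2.45 and -1.38, adjusted p = 0.0705 for each), the second of them under log2 4 on all 4 arrays of day 3, and arg completed the 9. No probe set was called without any 1 of the 4 Rad21 arrays (316 to 380 at an unadjusted p of 0.05), while 1 was made without Nipped-B replicate 1 or 2, 3 without replicate 3 and 359 without replicate 4.

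The change of the difference between the time classes was itself called for 5 probe sets (0.0685%), each with Rad21 minus Nipped-B lower at days 4 and 6, and 681 passed at an unadjusted p of 0.05. With the replicate block there were 83 (1.14%), 43 with the difference higher late (0.589%) and 40 lower (0.548%). Without Rad21 replicate 1, 2, 3 or 4 or Nipped-B replicate 1 or 2 none was called (352 to 573 at an unadjusted p of 0.05). CG32182 turned its sign: it was at 9.77 and 9.81 in Rad21 and 9.14 and 9.12 in Nipped-B cells at day 3, and at 9.40 and 9.38 against 9.81 and 9.77 later, all above the mock range of 7.92 to 8.05 (change -1.06, SE 0.10, adjusted p = 0.0495). Tsp5D went from 0.25 higher to 0.76 lower in Rad21 cells (change -1.01, SE 0.11, adjusted p = 0.0712). For Idgf6 the change was -3.15 (adjusted p = 0.0662). Setting low values to log2 4 made it -2.49 (0.0496), and the limit given for its filter holds here too.

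**Figure D4:**
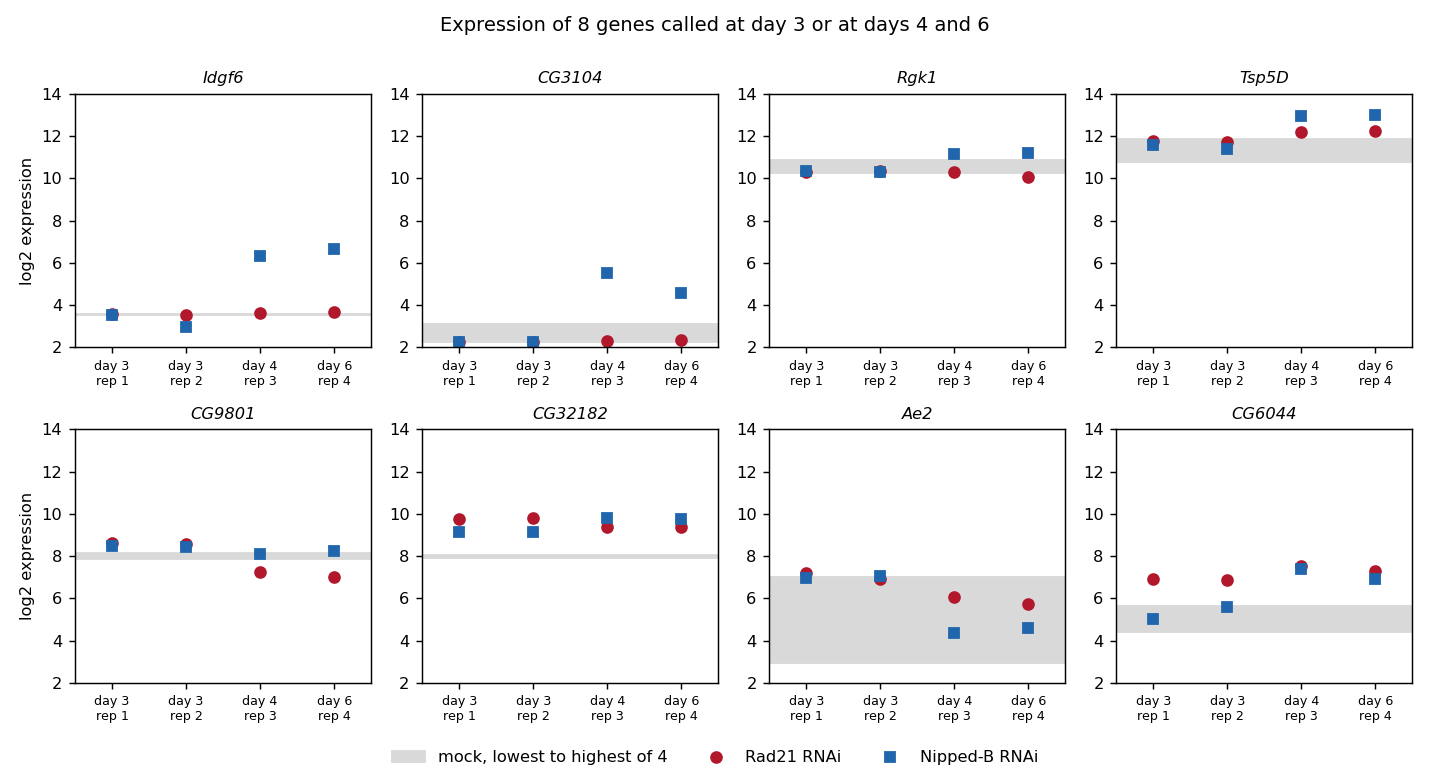
Log2 expression (y axis) of 8 genes on each Rad21 (circles) and Nipped-B array (squares) by day and replicate (x axis), with the mock range as a grey band. Idgf6 and CG3104 leave the mock range on the Nipped-B arrays of days 4 and 6, and CG32182 is 0.66 higher in Rad21 cells at day 3 and 0.41 lower later.

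Of the 51 lists, those described below were picked after their values were seen, for having most members on 1 side of 0 on some day by small amounts. Other lists were as one-sided. Lower in Rad21 cells were 19 of 19 nuclear pore genes at day 3 (median -0.09) and 25 of 27 proteasome genes at day 4 (-0.14). So were 20 of 21 mitotic spindle and kinetochore genes at day 6 (-0.14). Of 33 cytosolic ribosomal protein genes, 30 were lower at day 4 (-0.03) and 30 higher at day 6 (0.03). Genes of ribosome biogenesis, which make and assemble ribosomal RNA and subunits, were lower in Rad21 than in Nipped-B cells at day 3 in 26 of 28, with a median difference of -0.34, and higher in 25 of 28 at day 4 (median 0.16) and 26 of 28 at day 6 (median 0.22). The medians over the 5894 genes tested were -0.00, -0.02 and -0.02, and 2890, 2663 and 2636 of them were higher in Rad21 cells. No member was called in the 4 tests without a block. The day 3 block called 10 of the 28, all lower in Rad21 cells, against 145 of 5894 genes, and the block called the change between time classes for 5, all toward Rad21, against 33 of 5894. Nop60B, the pseudouridine synthase of box H/ACA particles, was at 10.22 and 9.66 in Rad21 and 11 and 10.20 in Nipped-B cells at day 3, and at 10.62 and 10.61 against 10.23 and 10.13 later. Its change of 1.09 had a block adjusted p of 0.0582. Polr1A, the largest subunit of RNA polymerase I, differed by -0.56 at day 3 (block adjusted p = 0.0382), 0.44 at day 4 and 0.14 at day 6, and Nopp140, a nucleolar chaperone, by -0.44 (0.0619), 0.30 and 0.36. Mock values of Nop60B (11.60 to 12.27) were above both knockdowns on all days.

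The aminoacyl-tRNA synthetase genes, which charge tRNAs, were lower in Rad21 cells at day 3 in 18 of 18 (median -0.19, range -0.40 to -0.03), in 11 of 18 at day 4 (median -0.06) and in 2 of 18 at day 6 (median 0.08). None was called without a block, and the day 3 block called 3 lower in Rad21 cells, IleRS, LeuRS and ThrRS (-0.40, -0.34 and -0.27), against 145 of 5894 genes. Genes of mitochondrial ribosomal proteins were lower in Rad21 cells in 64 of 69 at day 3 (median -0.10) and 61 of 69 at day 4 (-0.12), and higher in 65 of 69 at day 6 (0.10). No member was called without a block, and 1 was with the day 3 block, lower in Rad21 cells, against 145 of 5894 genes in this direction. Of 50 oxidative phosphorylation genes 9, 7 and 32 were higher in Rad21 cells at days 3, 4 and 6, with medians of -0.07, -0.08 and 0.02. With each array pair centred on its median, 5, 11 and 68 mitochondrial ribosomal protein genes and 9, 9 and 38 oxidative phosphorylation genes were higher in Rad21 cells, and the counts for ribosome biogenesis were unchanged. Days 4 and 6 are 1 pair each, so a shift shared by a list there cannot be told apart from that pair of arrays.

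Genes of DNA replication were lower in Rad21 cells in 25 of 29 at day 3 (median -0.07), higher in 27 of 29 at day 4 (0.11) and higher in 10 of 29 at day 6 (-0.02). None was called in any test, with or without a block. Glycolysis genes were lower in Rad21 cells at day 4 in 11 of 11 (median -0.46, range -0.92 to -0.09) and differed by medians of -0.07 at day 3 and -0.15 at day 6. Pfk, the phosphofructokinase gene, was at 12.08 on the Nipped-B array of day 4 and at 10.86 to 11.28 on the other 7 arrays. That 1 array therefore set the day 4 value. The gene for asparagine synthetase, AsnS, was the 1 of 16 genes of ATF4 and amino acid metabolism called at day 3, against 14 of 5894 genes in this direction. It was at 7.03 and 7.11 in Rad21 and 7.71 and 7.64 in Nipped-B cells (-0.60, adjusted p = 0.0968).

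**Figure D5:**
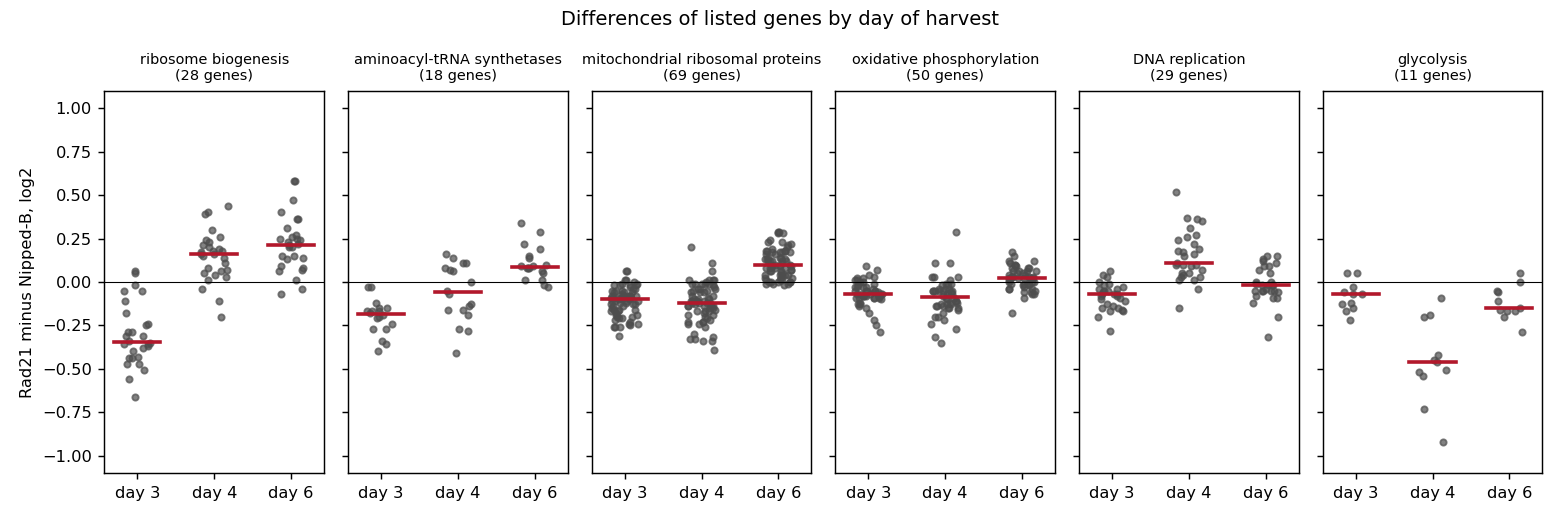
Rad21 minus Nipped-B on the log2 scale (y axis) for the tested genes of 6 lists at days 3, 4 and 6 (x axis). Each point is 1 gene, the mean of 2 pairs at day 3 and 1 pair at days 4 and 6, and red bars are medians, which for ribosome biogenesis go from -0.34 at day 3 to 0.16 and 0.22.

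Whether members near the limit of detection differed otherwise than the rest was not tested. The probe sets just inside the filter were those of bowl, obst-A and mbl, whose second-highest value of 8 was 4.0043, 4.0092 and 4.0098, and just outside were Dhc36C, tmod and CG30457 at 3.9753, 3.996 and 3.9974. Reaching log2 4 on arrays of 1 knockdown alone was rare, with 5 members in Rad21 and 12 in Nipped-B cells.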

How the data were processed

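The authors hybridized biotin-labelled RNA to Affymetrix Drosophila Genome 2.0 arrays and deposited log2 expression values per probe set after GCRMA, which adjusts background by probe GC content and normalizes quantiles between arrays. Its version: not given in the sources used here. Normalization to equal quantiles removes any shift shared by all genes, and values near log2 2 are background. Precision is limited by the number of arrays, 4 per knockdown. The deposited primer list was used for sequences.

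Of 18952 probe sets 183 controls were left out. Genes were named by matching the array annotation's gene identifiers to a RefSeq table of Release 6. Of the 7304 tested probe sets, 6362 name 1 gene (5894 genes, 6346 probe sets matched in RefSeq), 199 several and 743 none. No per-sample column was unmapped. Tests used limma 3.58.1 in R 4.3.3 with a variance trend, on treatment crossed with time class (day 3, or days 4 and 6), and Benjamini-Hochberg adjustment over all 7304, called at 0.1, the false discovery rate of the study's own analysis. Day 3 was tested on its 4 arrays alone. Days 4 and 6 and the change between time classes were contrasts of the 8-array fit, in which the late arrays of 1 knockdown come from different days. The fits were tested on simulated data.

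The replicate numbers marked the same day in both knockdowns. Deviations from the group means correlated with r = 0.7403, 0.7068, 0.7353 and 0.7473 for numbers 1 to 4 (0.3636 within day 3, 0.6675 between days 4 and 6). Every Rad21 array correlated best with its own number, so the numbers were taken to pair the arrays. Numbers 3 and 4 are the only arrays of their days, so their match cannot be told apart from the day. Within day 3, with 2 arrays per knockdown, both numbers give the same single value. The alternative with the replicate number as a block is given beside the counts it moved by more than 1.5 times and the genes described in most detail. Of the named genes, it alone called 23 over all arrays, 8 at day 3, 16 at days 4 and 6 and 8 for the change between time classes. On the 4 arrays of day 3, or of days 4 and 6, the block leaves 1 residual degree of freedom, so calls there lean on the shared spread.

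Genes were named by these rules: the 15 highest and 15 lowest called genes, the same for the replicate block (added after the first rule gave only arg), the genes the study names, the 5 largest calls each way of the other tests, and called members of 51 gene lists. Other genes were chosen after their values were seen. Members and lists were chosen with earlier results of these data known. Values of 7 study-named genes are not analysed here.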

Additional observations from a re-analysis of the deposited data

Results flagged for a closer look

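Among 90 groups of 4 arrays examined, of which chance flags about 1 in 20, 3 held an array set apart from its group. The Nipped-B array of day 6 (replicate 4) had Fmo-2 at 5.72, against 6.81 to 6.94 on the other 3. The same array had E(spl)malpha-BFM at 4.77, against 2.77 to 3.03. The Nipped-B array of day 4 (replicate 3) had CG46339 at 5.79, against 8.24 to 8.49. These arrays also differ from their group in day or amount of dsRNA.

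The difference between the knockdowns differed between time classes by the limma test of the change for 5 probe sets. Rad21 minus Nipped-B at days 4 and 6 less that at day 3 was -1.06 for CG32182 (adjusted p = 0.0495), -1.01 for Tsp5D (0.0712), -3.15 for Idgf6 (0.0662, and -2.49 with values under log2 4 set to 4), and -2.53 and -1.26 for a pair of probe sets without a gene name (0.0495 for each). The first of this pair was under log2 4 on all day 3 arrays, and with values under log2 4 set to 4 its day 3 difference was 0 and its late difference -1.38. On it the Rad21 arrays were at 3.94, 3.98, 4.70 and 4.64 and the Nipped-B arrays at 2.83, 2.79, 6.19 and 5.92. On the second they were at 10.07, 10.09, 11.02 and 11.02, and at 9.10, 9.20, 11.26 and 11.43.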

How the results depend on the processing

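Counts of calls moved with the processing. Over all 8 arrays 1 call became 17 without the filter (7 higher in Rad21), 7 with values under log2 4 set to 4 (1 higher), 37 with the replicate block, 56 with the day of harvest as a block (47 higher) and 7 with all 12 arrays in the fit, and 0 to 171 leaving out 1 array. At day 3, 84 became 455 without the filter, 32 with values under log2 4 set to 4, 28 at an adjusted p of 0.05, 5 within the fit of 8 arrays, 420 with the replicate block and 0 to 56 leaving out 1 array. At days 4 and 6, 9 became 15 without the filter, 0 at 0.05, 74 with the replicate block and 0 to 359. For the change between time classes, 5 became 9 without the filter, 2 with a filter at log2 5, 3 at 0.05, 83 with the replicate block, 3 with all 12 arrays and 0 to 5. The other counts, those of 2-fold differences included, stayed within 1.5 times. Centring arrays gave 115 calls at day 3, 81 and 34 by direction, against 66 and 18. The cause of these moves was not tested.

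Of the named genes, 3 that were not called turned sign: Psc without Nipped-B replicate 3 (-0.08 to 0.25 over arrays left out), mam without Rad21 replicate 3 (-0.28 to 0.01), and Delta without Rad21 replicate 1, Rad21 replicate 4 or Nipped-B replicate 3 (-0.27 to 0.28). Others kept their sign and moved in size over all 8 arrays, among them en (0.25 to 0.61), E(spl)mdelta-HLH (1.75 to 3.54), E(spl)malpha-BFM (0.09 to 1.09) and CG34330 (-2.0 to -0.71). Arrays that leave 1 sample for a time class rest on the spread of the others.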
